A study of Mus musculus with 6 samples.

Results

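The meiotic crossover factors Msh4, Msh5, Mlh3, Rnf212, Hfm1 and Tex11 were followed in RNA-seq counts of ovaries. They were chosen by name as MutS homologs, a MutL homolog and factors of the ZMM type. All 6 are among the 25239 genes of the deposited table, and all 6 passed the filter on low counts, as did 14849 genes in all. The libraries came from C57BL/6 mouse ovaries at E18.5: 3 are labelled Hnrnpl-null and 3 are labelled WT. Hnrnpl encodes an RNA-binding protein that regulates splicing. The titles of the Hnrnpl-null libraries carry the abbreviation CKO, and the labels name neither a Cre driver nor the deleted exons. Oocyte is the cell type in the labels, but Liberase-treated ovaries were the source, no sort is named, and markers of pregranulosa and stromal cells were abundant in all libraries. No label ties a library to an animal, so the p-values rest on library-to-library spread, part of which may be technical.

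Crossovers join homologous chromosomes in meiotic prophase and keep them paired until the meiotic divisions. In female mice this takes place in the fetal ovary, and oocytes stay arrested with their crossovers in place until ovulation. Msh4 and Msh5 form a heterodimer that binds recombination intermediates and protects those that will cross over. Hfm1, the homolog of yeast Mer3, is a DNA helicase, and Tex11, the homolog of yeast Zip4, is an X-linked scaffold of the same set. Rnf212 is a RING-domain protein that selects the sites, and Mlh3 is part of the endonuclease that resolves them.

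Counts outside Rn45s, the 45S pre-ribosomal RNA, were between 1757572 and 10980179 per library. Rn45s took 86.1% of the counts in Hnrnpl-null replicate 3 and 83.0% in WT replicate 1, against 18.6% to 36.01% in the other 4 libraries. Results are therefore also given without these 2 libraries. Hnrnpl itself averaged 184 ± 25.5 CPM in Hnrnpl-null libraries and 162 ± 14.8 CPM in WT libraries (SD, n = 3 each) and was not called (edgeR adjusted p = 0.50), so the summed count over its exons does not check the labels. The germ cell markers Ddx4, Dazl and Mael summed to between 57.5 and 69.4 CPM in Hnrnpl-null libraries and between 104 and 123 CPM in WT libraries. All 3 fell (edgeR quasi-likelihood test, adjusted p of 0.044, 0.0096 and 0.0040), where 1.79% of all tested genes were called lower. When 1 library was left out, 1 to 3 were called (1 without Hnrnpl-null replicate 2 or WT replicate 3), and 0 were called with library totals alone as the scaling. Of 10 leukocyte markers 8 rose, where 2.67% of all tested genes were called higher, and 2 were not called. The 10 summed to between 617 and 782 CPM in Hnrnpl-null libraries and between 42.8 and 47.0 CPM in WT libraries. Mpo alone averaged 451 ± 63.9 CPM in Hnrnpl-null libraries and 0.44 ± 0.15 CPM in WT libraries (SD, n = 3 each). Ctsg was at 0 in WT replicate 3. Pregranulosa markers summed to between 737 and 829 CPM in Hnrnpl-null libraries and between 696 and 759 CPM in WT libraries, and without Kitl between 567 and 656 CPM in Hnrnpl-null libraries and between 624 and 673 CPM in WT libraries. Of the 8, edgeR called only Kitl, higher, at 174 ± 4.02 CPM in Hnrnpl-null libraries and 78.4 ± 7.05 CPM in WT libraries (SD, n = 3 each). Irx3 and Fst were lower at an unadjusted edgeR p below 0.05, with groups that did not overlap, and DESeq2 and limma-voom each called Irx3 lower. At that unadjusted threshold, 8.53% of all tested genes were lower. Groups also did not overlap for 2 of the 8 that were higher, Kitl included. Of all 14849 tested genes, 1953 (13.2%) were lower without overlap and 1844 were higher without overlap. Of 5 stromal markers Col1a1 and Col1a2 rose (0 called without Hnrnpl-null replicate 2, and 1 without Hnrnpl-null replicate 1 or any WT library), and the 5 summed to between 6105 and 6931 CPM in Hnrnpl-null libraries and between 4078 and 4423 CPM in WT libraries. The other 3 stromal markers summed to between 240.0 and 286 CPM in Hnrnpl-null libraries and between 247 and 260.3 CPM in WT libraries. By edgeR, none of 4 endothelial markers was called. At an unadjusted edgeR p below 0.05, 1 was higher and 1 lower, against 9.97% and 8.53% of all tested genes. DESeq2 and limma-voom each called 1 endothelial marker in each direction. Likewise edgeR called none of 3 tested erythroid markers. Of these, 2 were higher at an unadjusted edgeR p below 0.05, as were 9.97% of all tested genes. DESeq2 and limma-voom each called 2 erythroid markers higher. The part of these cell types in the results was not tested. In bulk tissue, fewer germ cells and less RNA per germ cell cannot be told apart.

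The members lie on 5 chromosomes of mm10 and all are on the minus strand. Msh4 spans chr3:153857141-153906138, Msh5 chr17:35028605-35046745, Mlh3 chr12:85234466-85270599, Rnf212 chr5:108729302-108775027, Hfm1 chr5:106840197-106925890 and Tex11 chrX:100838648-101059639. Their exonic lengths run from 1032 bases in Rnf212 to 5517 bases in Mlh3, and no exon of the 6 overlaps an exon of another gene in the table. The promoters of Hfm1 and Mlh3, the members with a called difference, are shown beside that of Rnf212, which was not called. Each runs from 250 bases before to 50 bases after a RefSeq start (GRCm38.p6, minus strand), and each start used is the edge of the gene in the deposited table. The intervals are chr5:106925841-106926140 for Hfm1, chr12:85270550-85270849 for Mlh3 and chr5:108774978-108775277 for Rnf212. Capitals mark matches, on either strand, to CNCCTCAG (a motif of the meiotic entry factor STRA8), to the E-box CACGTG, or to GCGGGA, a core of E2F sites.
Hfm1: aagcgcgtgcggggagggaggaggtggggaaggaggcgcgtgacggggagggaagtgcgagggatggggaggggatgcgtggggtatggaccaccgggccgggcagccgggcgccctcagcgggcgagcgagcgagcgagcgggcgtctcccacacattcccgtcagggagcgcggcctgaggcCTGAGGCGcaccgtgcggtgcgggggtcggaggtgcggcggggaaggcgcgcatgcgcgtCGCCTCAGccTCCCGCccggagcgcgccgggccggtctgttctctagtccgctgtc
Mlh3: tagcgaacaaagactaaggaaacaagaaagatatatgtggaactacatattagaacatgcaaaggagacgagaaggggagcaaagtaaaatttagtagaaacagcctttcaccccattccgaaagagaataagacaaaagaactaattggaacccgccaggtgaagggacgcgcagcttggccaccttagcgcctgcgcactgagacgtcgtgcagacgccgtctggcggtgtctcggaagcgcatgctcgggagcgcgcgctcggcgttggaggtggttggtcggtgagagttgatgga
Rnf212: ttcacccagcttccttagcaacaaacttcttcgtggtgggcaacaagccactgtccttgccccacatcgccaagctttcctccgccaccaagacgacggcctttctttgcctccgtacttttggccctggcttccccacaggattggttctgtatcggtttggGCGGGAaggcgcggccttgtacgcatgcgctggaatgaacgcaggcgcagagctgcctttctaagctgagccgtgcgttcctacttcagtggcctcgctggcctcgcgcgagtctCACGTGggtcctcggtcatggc
Hfm1 has 2 matches to the STRA8 motif and 1 to the E2F core, Rnf212 has 1 E-box and 1 E2F core, and Mlh3 has none of these. Among the promoters of 27025 RefSeq genes, 9.12% hold CNCCTCAG, 8.09% hold CACGTG and 22.0% hold GCGGGA. Of the members not printed, Msh5 has 1 match to CNCCTCAG and 2 to GCGGGA, and Msh4 has none of the 3 (Tex11 was not searched). The RefSeq start used lies 1247 bases from the edge of the deposited gene in Msh4 and 123 bases from it in Msh5, so these windows may not be the promoters of the counted transcripts. The GC content of the printed windows is 75.3% in Hfm1, 51.7% in Mlh3 and 59.7% in Rnf212. Promoters with and without a match are found among the called members and among the others. The protein made from Hnrnpl binds CA-rich RNA, so runs of AC were also counted in spliced transcripts of GENCODE M21. None of the 6 members has AC repeated 5 or more times in an annotated protein-coding transcript, where 8.05% of 21877 genes do. So few members cannot show a difference from that share. Introns were not searched.

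Of the 6 crossover factors, Hfm1 and Mlh3 fell in Hnrnpl-null ovaries, and the other 4 were not called. Calls are at an edgeR quasi-likelihood p below 0.05 after Benjamini-Hochberg adjustment over all 14849 tested genes, of which 1.79% were called lower. In all, 397 genes were called higher and 266 lower. This total of 663 became 249 to 389 when any library but Hnrnpl-null replicate 3 was left out, and 853 without that one. With library totals alone as the scaling the split was 3 higher and 1 lower, and with totals outside Rn45s it was 123 higher and 132 lower. Estimated log2 fold changes were below 0 for all 6 members, as they were for 51.2% of all tested genes. Their median was -0.60, against -0.01 over all tested genes. Groups did not overlap for Hfm1, Mlh3 and Tex11, with each Hnrnpl-null library below each WT library. That was the case for 13.2% of all tested genes.

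**Figure D1:**
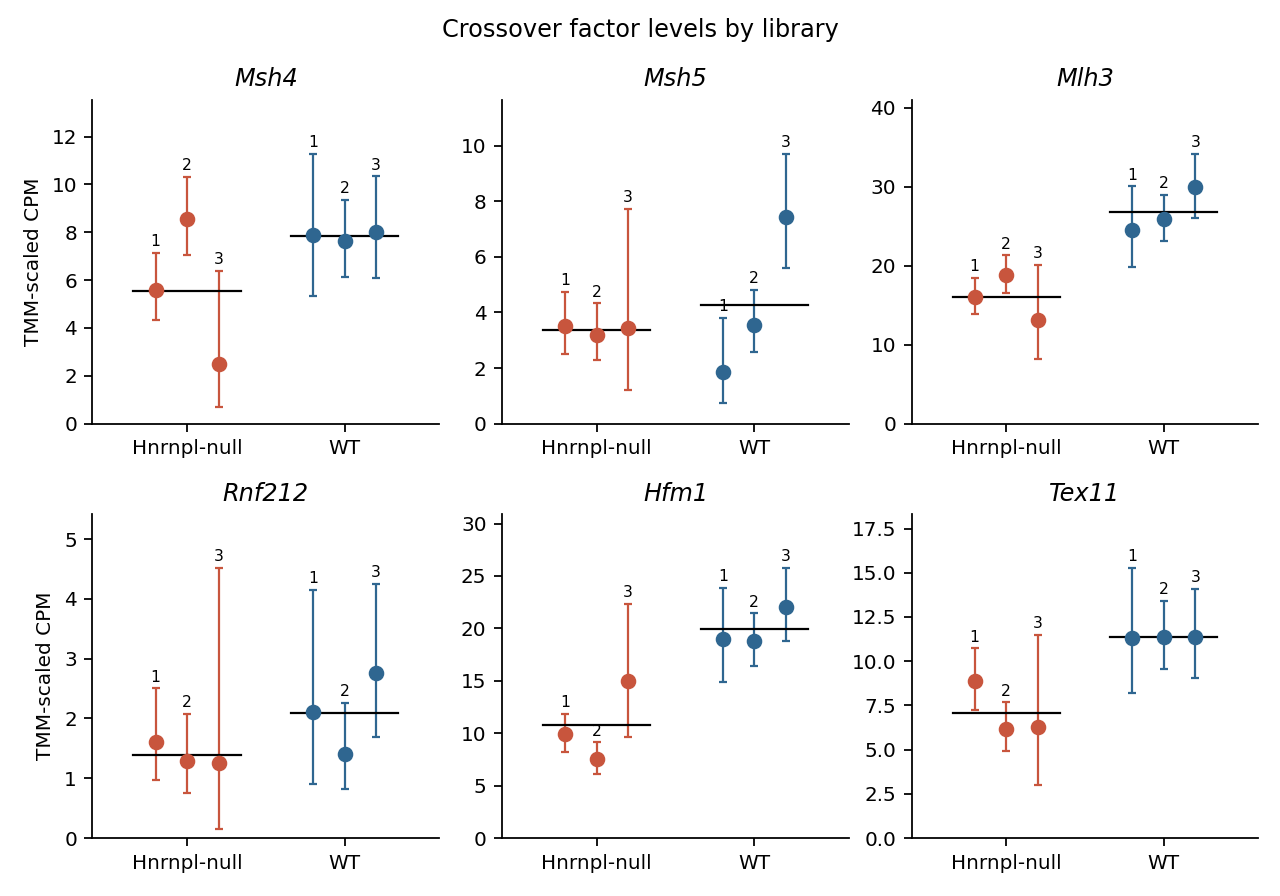
Level of each crossover factor by library, as CPM on TMM-scaled library sizes, with Hnrnpl-null libraries on the left and WT libraries on the right. Numbers are replicates, bars are exact Poisson 95% intervals on read pairs (counting error only) and lines are group means. Hfm1, Mlh3 and Tex11 have groups that do not overlap, and Msh4, Msh5 and Rnf212 have groups that do.

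Hfm1, the helicase, had 9.91, 7.50 and 15.0 CPM in Hnrnpl-null replicates 1 to 3, against 19.0, 18.8 and 22.1 CPM in WT replicates 1 to 3. The WT libraries lie close together, while the Hnrnpl-null libraries spread more widely, with replicate 3, the one with the fewest counts outside Rn45s, highest. Its log2 fold change was -0.98 ± 0.23 (SE), or 50.6% of WT with a 95% interval of 36.1% to 70.9% (edgeR adjusted p = 0.027). Without the 2 libraries rich in Rn45s it was -1.22 (adjusted p = 0.0015). The call ended when WT replicate 2, WT replicate 3, Hnrnpl-null replicate 1 or Hnrnpl-null replicate 2 was left out (adjusted p between 0.088 and 0.13 by edgeR), with log2 fold changes from -1.02 to -0.75.

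Mlh3, the MutL homolog of the resolving endonuclease, had 16.0, 18.8 and 13.1 CPM in Hnrnpl-null replicates 1 to 3, against 24.5, 26.0 and 29.9 CPM in WT replicates 1 to 3. No Hnrnpl-null library reached the lowest WT library. Its log2 fold change was -0.71 ± 0.17 (SE), or 61.0% of WT with a 95% interval of 47.7% to 78.1% (edgeR adjusted p = 0.027). Without the 2 libraries rich in Rn45s it was -0.67 (adjusted p = 0.029). Leaving out WT replicate 2 or 3, or Hnrnpl-null replicate 1, ended the call (adjusted p between 0.091 and 0.12 by edgeR), with log2 fold changes from -0.74 to -0.62.

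Tex11, the X-linked scaffold, had 8.85, 6.17 and 6.25 CPM in Hnrnpl-null replicates 1 to 3, against 11.3, 11.4 and 11.4 CPM in WT replicates 1 to 3. The groups did not overlap, but the difference was not called, at 63.7% of WT with a 95% interval of 45.5% to 89.2% (edgeR adjusted p = 0.13, unadjusted p = 0.012). Without the 2 libraries rich in Rn45s the log2 fold change was -0.59, against -0.65 with all 6 (adjusted p = 0.18). In Hnrnpl-null replicate 3 the Tex11 level rests on 20 counts, which appear to be 10 read pairs.

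The MutS homologs Msh4 and Msh5 did not separate the groups. Msh4 had 5.61, 8.57 and 2.50 CPM in Hnrnpl-null replicates 1 to 3, against 7.90, 7.63 and 7.99 CPM in WT replicates 1 to 3. Hnrnpl-null replicate 2 was above each WT library, and replicate 3 was lowest with only 8 counts, whose counting interval runs from 0.681 to 6.40 CPM. The 95% interval of the Msh4 difference was 48.5% to 125% of WT (edgeR adjusted p = 0.60). Its log2 fold change was -0.36, but -0.14 without Hnrnpl-null replicate 3, -0.78 without Hnrnpl-null replicate 2 and -0.13 without the 2 libraries rich in Rn45s. Msh5 had 3.50, 3.20 and 3.44 CPM in Hnrnpl-null replicates 1 to 3, against 1.84, 3.57 and 7.44 CPM in WT replicates 1 to 3. Here the WT libraries held the spread: WT replicate 1 was below and WT replicate 3 above all Hnrnpl-null libraries. The 95% interval of the Msh5 difference was 39.9% to 148% of WT (edgeR adjusted p = 0.71). Its log2 fold change of -0.38 turned to 0.27 without WT replicate 3 and was -0.69 without WT replicate 1 or without both libraries rich in Rn45s. Per length, Msh4 stood to Msh5 at 1.27, 2.12 and 0.575 in Hnrnpl-null replicates 1 to 3, against 3.39, 1.69 and 0.849 in WT replicates 1 to 3. These ratios overlap (exact two-sided permutation p = 0.50).

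Rnf212, the RING-domain factor, was the member with the fewest counts. It had 1.60, 1.29 and 1.25 CPM in Hnrnpl-null replicates 1 to 3, against 2.11, 1.41 and 2.76 CPM in WT replicates 1 to 3. The values rest on 4 to 38 counts in Hnrnpl-null libraries and 16 to 40 counts in WT libraries, and the groups overlap. The 95% interval of the difference was 30.8% to 150.0% of WT (edgeR adjusted p = 0.63). Without the 2 libraries rich in Rn45s its log2 fold change was -0.50, against -0.56 with all 6.

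Levels of different genes were compared per kilobase of exon. In Hnrnpl-null libraries Mlh3 averaged 2.90 ± 0.52 CPM per kilobase, Hfm1 2.03 ± 0.72, Tex11 1.97 ± 0.42, Msh4 1.498 ± 0.82, Rnf212 1.34 ± 0.19 and Msh5 1.15 ± 0.05 (SD, n = 3). Neighbours in that order overlapped in range, except Rnf212 and Msh5. In WT libraries Mlh3 averaged 4.86 ± 0.51 CPM per kilobase, Hfm1 3.76 ± 0.34, Tex11 3.16 ± 0.01, Msh4 2.11 ± 0.05, Rnf212 2.03 ± 0.65 and Msh5 1.46 ± 0.98 (SD, n = 3). There the ranges of Mlh3, Hfm1, Tex11 and Msh4 were separate, while Msh4, Rnf212 and Msh5 overlapped. Mlh3 had the highest level per kilobase in 5 of the 6 libraries, and Hfm1 in Hnrnpl-null replicate 3.

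Because the germ cell markers fell too, each member was also set against the summed counts of Ddx4, a germ cell RNA helicase, and Dazl, a germ cell RNA-binding protein, in the same library. Per 100 counts of these markers, Hfm1 had 22.3, 18.498 and 30.4 counts in Hnrnpl-null replicates 1 to 3, against 25.3, 24.6 and 24.6 in WT replicates 1 to 3. Mlh3 had 36.1, 46.4 and 26.6 counts in Hnrnpl-null replicates 1 to 3, against 32.6, 33.9 and 33.3 in WT replicates 1 to 3. For both genes the Hnrnpl-null libraries lie on either side of the WT libraries. Tex11 had 19.96, 15.2 and 12.7 counts in Hnrnpl-null replicates 1 to 3, against 15.1, 14.8 and 12.7 in WT replicates 1 to 3. On this scale all 6 members had groups that overlap. The ratio of the Hnrnpl-null mean to the WT mean was between 0.957 (Hfm1) and 1.48 (Msh5). Exact two-sided permutation p-values were 0.40 to 0.70, where 0.10 is the smallest possible, and all were 0.70 adjusted over 7 ratios, that of Msh4 to Msh5 included. So small a test does not show that the ratios were alike. Ddx4 itself made up 34.9%, 30.2% and 12.7% of the summed markers in Hnrnpl-null replicates 1 to 3, against 27.4%, 28.4% and 28.6% in WT replicates 1 to 3, and in Hnrnpl-null replicate 3 it rests on 20 counts.

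**Figure D2:**
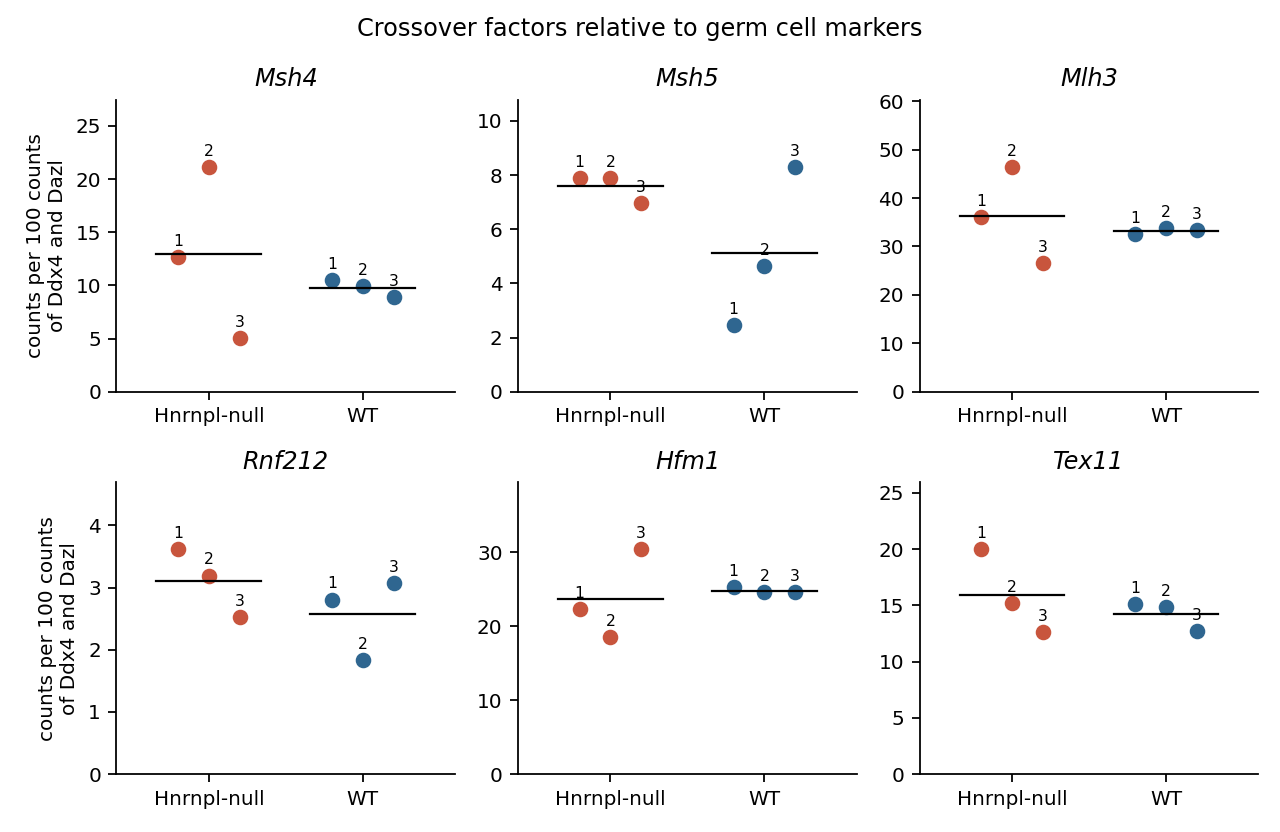
Counts of each crossover factor per 100 summed counts of Ddx4 and Dazl in the same library, with Hnrnpl-null libraries on the left and WT libraries on the right. Points are libraries, numbered by replicate, and lines are group means. The groups overlap for all 6 genes.

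Other genes of crossover designation were taken from a list of 9, of which 8 are in the table and were tested, and Spo16 was not used here. edgeR, DESeq2 and limma-voom each called 0 of the 8, and 3 were lower at an unadjusted edgeR p below 0.05, a share to set beside 8.53% of all tested genes. Those 3 also had groups that did not overlap, all lower, against 13.2% of all tested genes. They were Shoc1, a partner of Tex11 in the ZMM set, at 4.19 ± 2.03 CPM in Hnrnpl-null libraries and 7.83 ± 0.68 CPM in WT libraries (SD, n = 3 each), Rnf212b, a relative of Rnf212, at 2.47 ± 0.64 CPM in Hnrnpl-null libraries and 4.32 ± 0.74 CPM in WT libraries, and Prr19, needed for late crossover sites, at 1.47 ± 0.87 CPM in Hnrnpl-null libraries and 3.91 ± 1.22 CPM in WT libraries. In Hnrnpl-null replicate 3 Shoc1 rests on 6 counts, Rnf212b on 10 and Prr19 on 2. Rnf212b exons overlap those of Homez. Ccnb1ip1, which encodes the ubiquitin ligase HEI10, was at 2.34 ± 1.31 CPM in Hnrnpl-null libraries and 4.64 ± 2.07 CPM in WT libraries. Cntd1, a cyclin-related partner of Prr19, was at 1.97 ± 1.72 CPM in Hnrnpl-null libraries and 3.61 ± 0.99 CPM in WT libraries, with exons that overlap those of Becn1. Cdk2, a kinase with roles in mitotic cells too, was at 27.3 ± 3.40 CPM in Hnrnpl-null libraries and 28.3 ± 1.24 CPM in WT libraries, and Exo1, an exonuclease, was at 13.3 ± 1.41 CPM in Hnrnpl-null libraries and 10.3 ± 1.46 CPM in WT libraries. Mcmdc2, a meiotic MCM-domain protein, was at 1.32 ± 1.18 CPM in Hnrnpl-null libraries and 1.73 ± 0.42 CPM in WT libraries. Cntd1 and Mcmdc2 had 0 counts in Hnrnpl-null replicate 3, where counting error alone allows up to 2.31 CPM. The median log2 fold change of the 8 genes was -0.69, and -0.47 without the 2 libraries rich in Rn45s.

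The MutS and MutL relatives act in mismatch repair in dividing cells. Of the 4 described here, none was called by edgeR or DESeq2, and 1 (Msh3) was called lower by limma-voom and had an unadjusted edgeR p below 0.05. At that unadjusted threshold, 8.53% of all tested genes were lower. Msh3 was at 12.3 ± 2.43 CPM in Hnrnpl-null libraries and 16.9 ± 1.14 CPM in WT libraries (SD, n = 3 each), with exons that in part overlap those of another gene. Msh6, a MutS homolog of mismatch repair, was at 47.3 ± 5.27 CPM in Hnrnpl-null libraries and 53.7 ± 4.43 CPM in WT libraries, with exons that overlap those of Fbxo11. The MutL homologs Pms1 and Pms2 were at 3.57 ± 1.48 and 8.95 ± 3.30 CPM in Hnrnpl-null libraries, against 5.14 ± 1.35 and 10.3 ± 2.14 CPM in WT libraries. The median log2 fold change of the 4 relatives was -0.37, against -0.60 for the 6 crossover factors, and that difference was not tested.

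**Figure D3:**
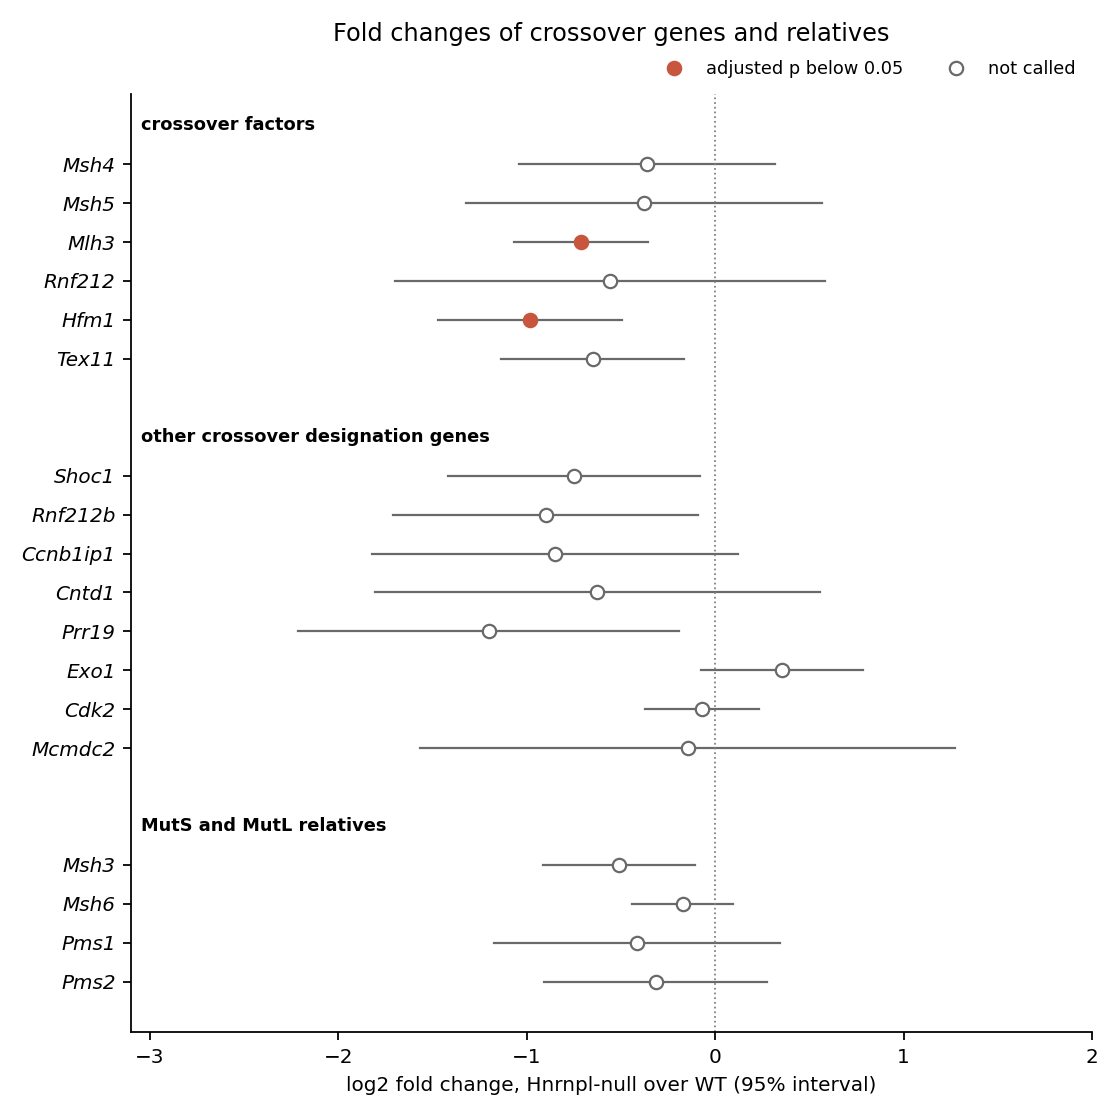
Log2 fold change, Hnrnpl-null over WT, with its 95% interval for the crossover factors, 8 other crossover designation genes and 4 MutS and MutL relatives. Filled points have an edgeR adjusted p below 0.05: only Hfm1 at -0.98 and Mlh3 at -0.71 are filled.

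Further lists place these values. Of 13 tested synapsis and chromosome axis genes 8 fell, with a median log2 fold change of -1.03, where 1.79% of all tested genes were called lower. When 1 library was left out, 5 to 8 were called lower (5 without Hnrnpl-null replicate 2, WT replicate 2 or WT replicate 3). With library totals alone as the scaling, 0 of the 13 were called. The axis protein Sycp3 fell to 5.40 ± 1.95 CPM in Hnrnpl-null libraries, against 18.47 ± 4.40 CPM in WT libraries (SD, n = 3 each, edgeR adjusted p = 0.0012), with exons that overlap those of Chpt1. The meiotic cohesin subunits Rec8 and Smc1b fell to 20.9% and 35.2% of WT (edgeR adjusted p = 0.0011 and 1.8e-04). Of 14 tested genes of double-strand breaks and strand exchange, edgeR called only Mei1, lower at 35.2% of WT (adjusted p = 0.047). That call ended when any WT library or Hnrnpl-null replicate 2 was left out. Of the 14, limma-voom called 2 lower, and edgeR with a replicate block called 0. By edgeR, 3 were lower at an unadjusted p below 0.05, against 8.53% of all tested genes. Groups did not overlap for 5, all lower, against 13.2% of all tested genes. Of 11 genes that process joint molecules, edgeR, DESeq2 and limma-voom each called 0, and only Blm, a helicase that dissolves them, had an unadjusted edgeR p below 0.05 (12.2 ± 0.76 CPM in Hnrnpl-null libraries and 15.8 ± 0.86 CPM in WT libraries). That is 1 of 11, near the 8.53% of all tested genes that were lower at that threshold. Groups did not overlap for 4 of the 11, Blm included, all lower, against 13.2% of all tested genes. Of 5 Ski2-like helicases, the wider family of Hfm1, none was called by the same 3 tools and none had an unadjusted edgeR p below 0.05. Medians were -0.40, -0.14 and -0.14 for these 3 lists.

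**Figure D4:**
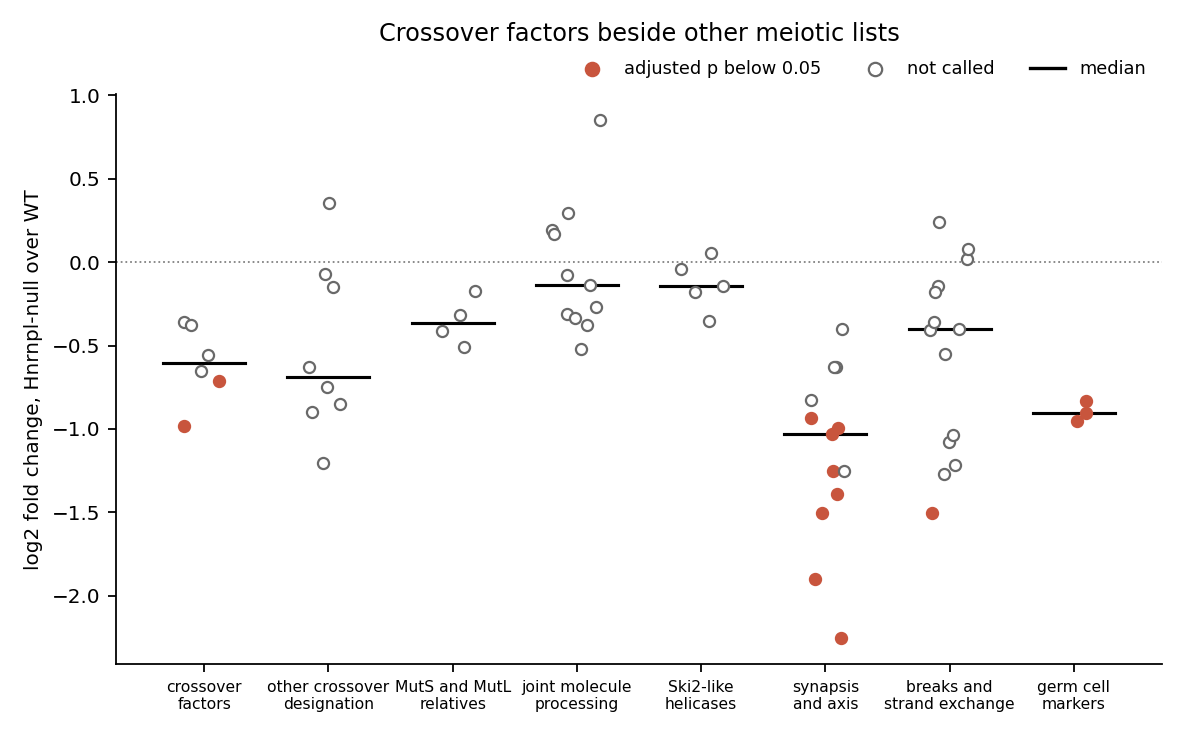
Log2 fold change, Hnrnpl-null over WT, of each tested gene in 8 lists, with the median of each list as a line. Filled points have an edgeR adjusted p below 0.05. The crossover factors have a median of -0.60 and 2 called genes, and the synapsis and axis list has a median of -1.03 and 8 called genes.

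The 5 genes whose log2 CPM most resembled the mean standardised profile of the 6 members over the 6 libraries were Synj1, Pikfyve, Chdh, Airn and Suox, with Pearson correlations of 0.979 to 0.986. They were picked from named genes with a mean of at least 5 CPM. The libraries share the group difference and their depth, so this is a description. None of the 5 was called by edgeR (adjusted p of 0.055 to 0.83), with log2 fold changes from -1.21 (Airn) to -0.14 (Suox). An unadjusted edgeR p below 0.05 was found for 3 of them, where 8.53% of all tested genes were lower at that threshold. All 5 were lower with groups that did not overlap. The members' mean profile was itself lower in each Hnrnpl-null library, so lower values in the 5 follow from how they were picked.

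**Figure D5:**
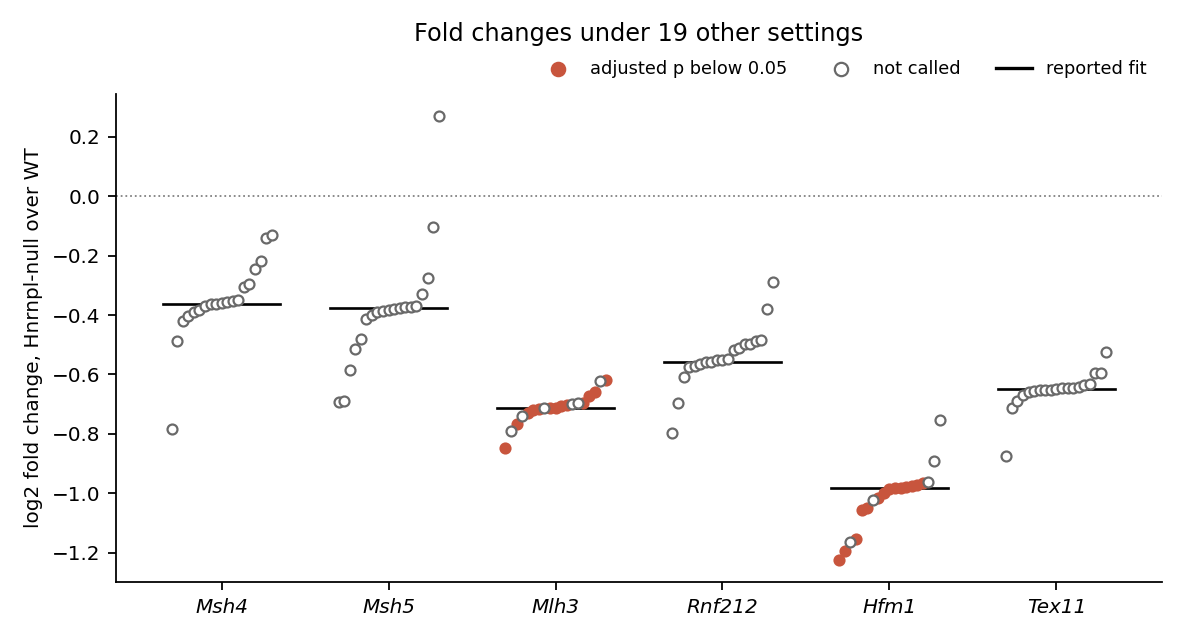
Log2 fold change, Hnrnpl-null over WT, of each crossover factor under 19 other settings of the analysis, with the reported value as a line. Filled points have an adjusted p below 0.05. Only Hfm1 and Mlh3 have filled points, and only Msh5 has a value above 0, without WT replicate 3.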

How the data were processed

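RNA was sequenced from 6 ovary libraries. The authors deposited raw counts per gene, 1 column per library, with exon coordinates and exonic length, in the featureCounts layout per the file headers. The submitters' processing notes name the build mm10 and, without roles, featureCounts 2.0.6, HISAT2 2.2.1 and STAR 2.7.11a. The annotation, the strand setting and the handling of multi-mapping reads: not given in the sources used here. Even numbers made up 93.4% to 98.4% of the counts from 1 to 20 in a library, as when both mates are counted, so 2 counts were taken as 1 read pair for counting intervals. Total counts ran from 8949781 to 22401419. Reads carry no molecular identifiers, so intervals cover counting error only.

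The test was that of edgeR 4.0.16 under R 4.3.3 (filterByExpr, TMM, glmQLFit, glmQLFTest, two-sided, genotype as the only term, all 6 libraries), adjusted over 14849 genes and called below 0.05. CPM uses TMM-scaled library sizes. Standard errors and intervals come from the F statistic. Ratios between genes used an exact two-sided permutation test over the 6 libraries. The ratio of Msh4 to Msh5 was added after values were seen. Some genes of the designation, MutS and MutL lists are not reported here, and list counts and medians are over the others. Members and lists were chosen with earlier results of these data known. Named genes were the members, all of the designation and MutS or MutL lists, up to 3 members of each other list by smallest p, Hnrnpl, Rn45s and the 5 nearest in profile. List symbols absent from the table were matched through RefSeq synonyms (GRCm38.p6). Promoters are RefSeq's, and the table held 5 of the 6 members. Alternatives were DESeq2 1.42.0, limma 3.58.1 (voom), other scalings and filters, leaving out libraries or Rn45s, halved counts, robust dispersions and a replicate block. No pair of replicates agreed within counting noise. On halved counts outside Rn45s, the lowest chi-square per degree of freedom was 5.21, for Hnrnpl-null replicates 1 and 2. WT replicates 2 and 3 had 6.16. Pairs with Hnrnpl-null replicate 3 had 81.4 and 87.4, and pairs with WT replicate 1 had 67.9 and 40.1.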

Additional observations from a re-analysis of the deposited data

How the results depend on the processing

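Hfm1 and Mlh3 kept a negative log2 fold change in all 19 other settings (-1.22 to -0.75 and -0.85 to -0.62), with their calls kept in 14 and 13 of them. The number of crossover factors called was 2 in the reported fit, 0 with library totals alone, 1 with library totals alone and the Rn45s row left out (a setting chosen after seeing the data), 1 with a replicate block, and 0 to 2 when 1 library was left out: 0 without WT replicate 2, WT replicate 3 or Hnrnpl-null replicate 1, and 1 without Hnrnpl-null replicate 2. Their median log2 fold change was -0.70 to -0.49 when 1 library was left out. The Msh5 value ran from -0.69 to 0.27 when 1 library was left out, with the sign turned without WT replicate 3, and Msh4, Rnf212 and Tex11 were negative and not called in any setting. Over all genes, 663 calls became 4 with library totals alone, 255 with library totals alone and the Rn45s row left out, 1065 with DESeq2, 1273 with limma-voom, 1104 with no filter on low counts, and 249 to 853 when 1 library was left out. The cause of these changes was not tested. No label says that replicate numbers pair the libraries. Deviations of same-numbered libraries from their group means correlated at -0.12, 0.09 and -0.09. With 3 libraries per group, such correlations cannot exclude pairing. With the replicate block 444 genes were called, and Mlh3 had a log2 fold change of -0.71 with an edgeR adjusted p of 0.054. The members with the fewest counts were Rnf212, Msh4 and Msh5, at 4, 8 and 11 counts in Hnrnpl-null replicate 3, and with all counts halved they were not called either.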
